A study of Homo sapiens with 8 samples.

Results

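The 22 h between the 50 h and 72 h samples of a neural differentiation of ESI017, a human embryonic stem cell line, are described here across all measured genes. They cover 4 of the 8 RNA-seq libraries of the study, 2 at 50 h and 2 at 72 h, chosen by their labelled time. All cells were kept in the serum-free neural medium N2B27 together with the agents labelled SB at 10 µM and LDN at 100 nM, and all of them received the signalling protein WNT3A at 300 ng/mL from 34 h on. The 50 h cells had therefore had WNT3A for 16 h and the 72 h cells for 38 h, and the effects of more time and of longer WNT3A cannot be told apart. Each time point has 1 library from each of 2 runs of the protocol, labelled as batches 1 and 2 and called replicates 1 and 2 below. A cell line is 1 genetic background, so the replicates measure the spread between runs, not between individuals.

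The hindbrain forms as a row of segments, the rhombomeres, each with its own combination of transcription factors. HOX genes of the low-numbered groups, EGR2 (also known as KROX20) and ephrin receptors such as EPHA4 mark or separate particular rhombomeres. Retinoic acid, a small molecule made from vitamin A, is one of the signals that sets this order, and the CYP26 enzymes that break it down and the receptor RARB are among its own target genes. WNT and FGF signals keep caudal progenitors, the cells at the tail end of the embryo, in a separate state marked by TBXT, CDX genes and NKX1-2.

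The retinoic acid genes CYP26A1 and RARB both rose from 50 h to 72 h, and their promoters are shown because each holds a direct repeat of the kind that retinoic acid receptors bind. The repeat searched was a pair of half-sites in the same direction, with 5 bases between them, on either strand. The half-sites allowed were AGGTCA, the related AGTTCA, the form GGTTCA and the form GGGTCA. It was found in 31 of 35116 RefSeq promoter windows (0.0883%), each running from 250 bases before to 50 after a transcription start. The windows with a match belonged to 29 genes, of which 9 were tested here, 2 rose (CYP26A1 and RARB) and 0 fell, where 2.92% of all tested genes rose and 4.41% fell. RARB reached the filter for testing, 1 TPM in at least 2 of the 8 libraries, through its 72 h levels alone, so it could not have been called lower, and it lost its call without any 1 of the 4 libraries (adjusted p 0.0508 to 0.105). The stretch before the start is printed from the plus strand of GRCh38.p14, 5′ to 3′, with the repeat in capitals, for chr10:93073643-93073892 (CYP26A1) and chr3:25428013-25428262 (RARB). In CYP26A1 the repeat begins 90 bases before the start and is on the opposite strand, where it reads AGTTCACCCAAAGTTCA. In RARB it begins 53 bases before the start. The same half-sites with 2 bases between them were in 14 windows (0.0399%) of 14 genes, of which 5 were tested, 1 rose and 0 fell; the 1 was ZBED6, named after its value was seen, whose locus overlaps ZC3H11A and whose call was lost without any 1 of the 4 libraries (adjusted p 0.0528 to 0.16). TCAAAG, a short form of the site of the WNT effectors TCF and LEF, was in 4536 windows (12.9%), and of 1297 tested genes with it 44 rose (3.39%) and 64 fell (4.93%), near the shares over all tested genes. A match is a description of the letters, and binding was not measured.

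CYP26A1: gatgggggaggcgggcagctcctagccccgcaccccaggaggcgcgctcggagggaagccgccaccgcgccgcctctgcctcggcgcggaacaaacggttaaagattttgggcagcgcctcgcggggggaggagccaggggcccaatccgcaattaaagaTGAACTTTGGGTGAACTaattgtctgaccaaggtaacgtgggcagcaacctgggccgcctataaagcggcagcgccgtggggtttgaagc

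RARB: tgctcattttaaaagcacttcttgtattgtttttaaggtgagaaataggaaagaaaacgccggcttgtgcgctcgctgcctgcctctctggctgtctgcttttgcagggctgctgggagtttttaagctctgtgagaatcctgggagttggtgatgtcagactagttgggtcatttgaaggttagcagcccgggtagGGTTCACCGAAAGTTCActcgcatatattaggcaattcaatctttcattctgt

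Expression was given by the authors in TPM, a share of transcripts that is scaled by transcript length and sums to 1000000 in each library, so the read depth behind a value is unknown. A gene was tested when it reached 1 TPM in at least 2 of the 8 libraries, which left 14908 genes. Differences are on the log2(TPM + 1) scale, which understates the change of low genes, and are given as the 72 h mean minus the 50 h mean with its standard error. The test was limma with Benjamini-Hochberg adjustment over all 14908 genes at an adjusted p of 0.05, fitted on all 8 libraries with 1 mean per time point. With 2 libraries against 2, an exact permutation test of a single gene cannot go below 0.333. By this test 436 genes rose (2.92%) and 657 fell (4.41%), together 1093 (7.33%). The median difference over all tested genes was 0.01. A total of 184 genes rose and 319 fell by at least 1 on the log2 scale, and 33 rose and 38 fell by at least 2. The 72 h libraries lay wholly above or below the 50 h libraries for 51.7% of all tested genes, and for each of the 1093 that passed. The call held without any 1 of the 4 libraries for 274 genes, 75 raised and 199 lowered, and below a gene is said to hold when it is one of these. With the 50 h and 72 h libraries alone in the fit, 149 genes rose and 218 fell. The replicates correlated at a Spearman rho of 0.98 at both times, against 0.963 to 0.968 between times, and mitochondrial transcripts took 8.70% to 10.4% of the TPM of these 4 libraries.

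**Figure D1:**
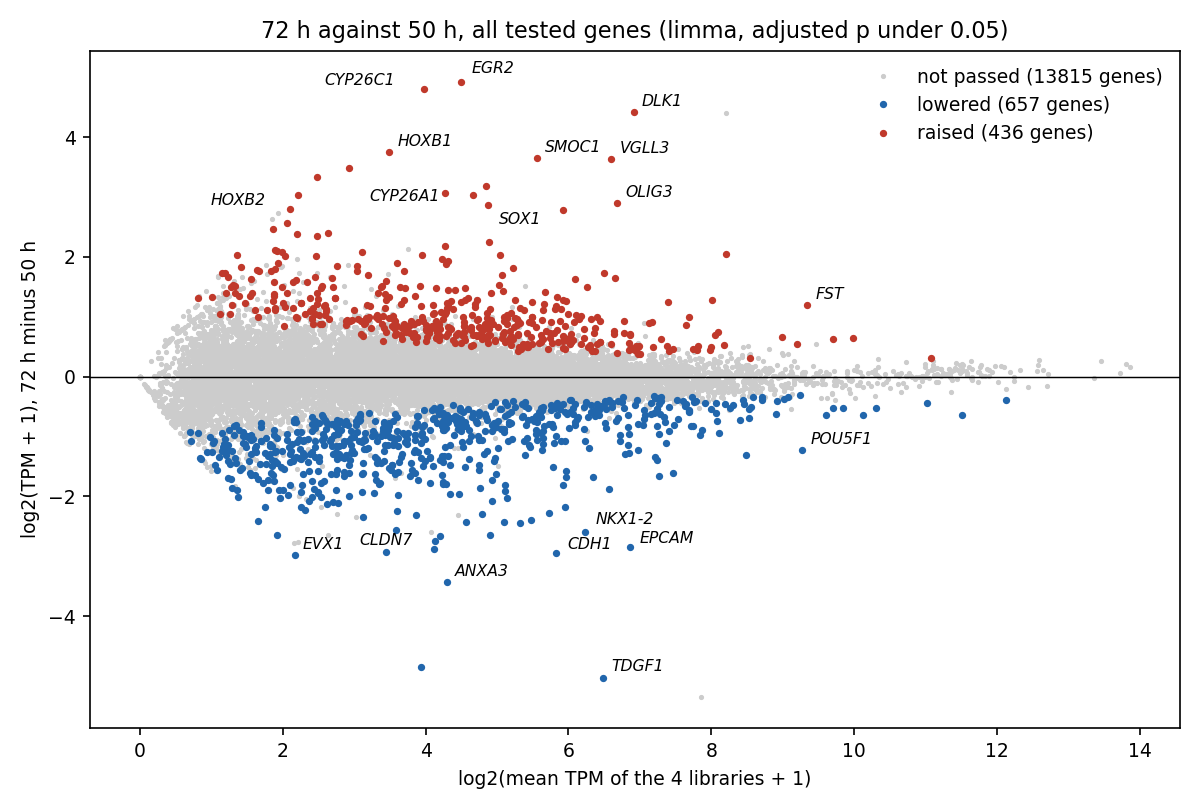
Difference of each tested gene between 72 h and 50 h against its mean level over the 4 libraries, both on log2 scales of TPM + 1. Red points are the 436 genes that rose and blue points the 657 that fell. EGR2 and CYP26C1 lie at the top and TDGF1 is the lowest labelled point.

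Of the hindbrain segment genes tested outside the HOX clusters, 9 of 22 rose in this interval, where 2.92% of all tested genes rose. EGR2 and CYP26C1 went from under 1 TPM to above 5 TPM. EGR2, the zinc finger factor of rhombomeres 3 and 5, stood at 0.599 and 0.284 TPM in replicates 1 and 2 at 50 h and at 46.9 and 38.7 TPM at 72 h. This was the largest rise of any gene that passed, 4.93 ± 0.27 on the log2 scale (SE, n = 2 per time, limma adjusted p = 0.000104). Over the 34 h and 42 h libraries EGR2 had been between 0.570 and 1.49 TPM. EPHA4, an ephrin receptor that EGR2 is known to activate, went from 14.2 and 14.4 TPM to 107 and 103 TPM, a rise of 2.79 ± 0.17 (adjusted p = 0.00012). NAB2, a co-repressor that binds EGR proteins, went from 15.5 and 14.5 TPM to 33.3 and 36.1 TPM (1.16 ± 0.12, adjusted p = 0.00113). For EGR2, EPHA4 and NAB2 both 72 h libraries lay above both 50 h libraries, as for every gene that rose and for 25.8% of all tested genes. In bulk RNA, more cells with a transcript and more transcript per cell cannot be told apart.

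The gene lists used here and below were chosen with earlier results of these data known, so their counts and medians are no independent support. Of 30 hindbrain segment genes outside the HOX clusters, 22 were tested, 9 rose and 1 fell (45.5%, against 7.33% called over all genes). The median difference was 0.67, against 0.01 over all genes. The tested members are those that reached the filter, and the other 8 were under 1 TPM in all 4 libraries. CYP26C1 and MEIS1 reached it through their 72 h levels alone, so they could not have been called lower. Besides EGR2, EPHA4 and NAB2, CYP26C1 and the HOX cofactor MEIS3 rose and held without any 1 library. MEIS3 was at 22.1 and 20.2 TPM at 50 h and at 56.4 and 49.5 TPM at 72 h (1.28 ± 0.13, adjusted p = 0.00113). MEIS2, a related cofactor, rose by 1.03 ± 0.18 (adjusted p = 0.0147), from a mean of 44.3 ± 4.56 to 91.3 ± 6.37 TPM (SD, n = 2). The homeobox gene IRX1 rose by 0.93 ± 0.17 (adjusted p = 0.0144), from 58.7 ± 9.6 to 112 ± 11.6 TPM. The MEIS2 and IRX1 calls were lost without 50 h replicate 2 (adjusted p 0.0877 and 0.0813), 72 h replicate 1 (0.083 and 0.0683) or 72 h replicate 2 (0.102 and 0.103). NR2F2, a nuclear receptor, and the ephrin EFNB3 rose by 1.11 ± 0.25 and 0.58 ± 0.13 (adjusted p 0.0367 and 0.0315). Both calls were lost without any 1 of the 4 libraries, at adjusted p 0.093 to 0.195 for NR2F2 (0.138 with a pseudocount of 0.1) and 0.0968 to 0.165 for EFNB3. NR2F2 also lost its call without 34 h replicate 1 (0.0581) or 34 h replicate 2 (0.0586), and EFNB3 without any 1 of the 34 h and 42 h libraries, at 0.0543 or lower. SPRY4, a feedback inhibitor of FGF signalling, was the member that fell, from 24.4 and 21.7 TPM to 8.55 and 8.47 TPM (-1.34 ± 0.12, adjusted p = 0.000592).

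Of the 12 tested members of the hindbrain list that did not pass, 2 are given here. GBX2, a factor of the anterior hindbrain, was at 1.31 and 1.21 TPM at 34 h and at 102 and 85.9 TPM at 42 h, and its levels of 132 and 97.8 TPM at 50 h overlapped those of 112 and 119 TPM at 72 h (0.02 ± 0.16, 95% interval -0.33 to 0.38, adjusted p = 0.954). MEIS1 was at 0.143 and 0.286 TPM at 50 h and at 3.39 and 1.12 TPM at 72 h, and did not pass (1.33 ± 0.37, adjusted p = 0.0704). Its level was higher in both 72 h libraries, which lay far apart, and without 72 h replicate 2 it passed at 0.0354.

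Of 5 tested HOX genes of groups 1 to 4, 3 rose and 2 did not pass. HOXB1, whose lasting expression marks rhombomere 4, was at 0.688 and 0.434 TPM at 50 h and at 18.5 and 21.3 TPM at 72 h (3.75 ± 0.23, adjusted p = 0.00012). HOXB2, its neighbour on chromosome 17, was at 0.0991 and 0.0655 TPM at 50 h and at 6.72 and 6.29 TPM at 72 h (2.79 ± 0.24, adjusted p = 0.000592). HOXA2, which has the most anterior border of the HOX genes, went from 0.431 and 0.419 TPM to 4.04 and 2.87 TPM (1.63 ± 0.26, adjusted p = 0.00938). The HOXA2 call was lost without 50 h replicate 2 (adjusted p = 0.0512), without 72 h replicate 1 (0.086) and with a pseudocount of 0.1 (0.106), while HOXB1 and HOXB2 held. All 3 genes were at 0 in both 34 h libraries.

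HOXA3 was at 3.01 and 1.39 TPM at 50 h and at 1.21 and 1.14 TPM at 72 h and did not pass (-0.51 ± 0.32, adjusted p = 0.397). HOXB3 was under the filter, with 50 h levels of 0.0324 and 0.0435 TPM and 72 h levels of 1.25 and 0.783 TPM. HOXB3 is among the 7 of the 12 genes of groups 1 to 4 that were not tested. HOXB1, HOXB2 and HOXA2, the 3 that rose, reached the filter through their 72 h levels alone, so they could not have been called lower and the count of rises is no measure of the group. None of the 27 genes of groups 5 to 13 reached 1 TPM in any of the 4 libraries, with 22 of them listed at 0 in all 4.

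**Figure D2:**
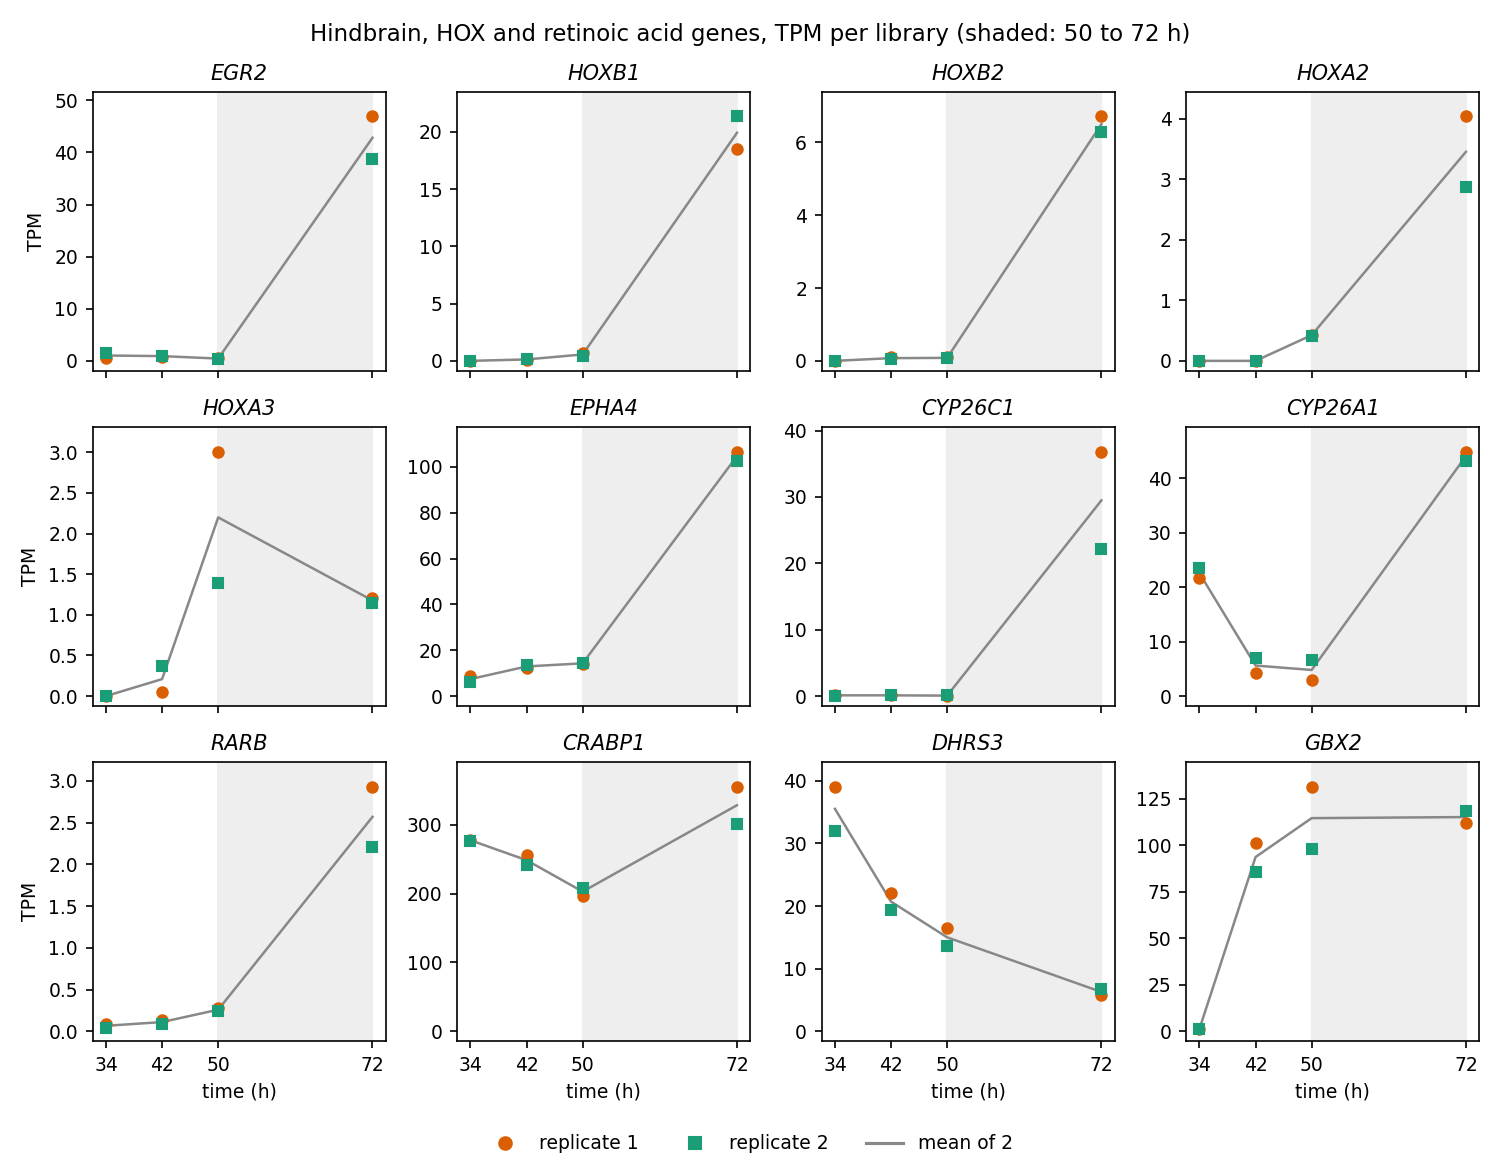
TPM of 12 hindbrain, HOX and retinoic acid genes in each of the 8 libraries against time in hours, with circles for replicate 1, squares for replicate 2 and a line through the means, each panel on its own scale. EGR2, HOXB1, HOXB2 and CYP26C1 are near 0 up to 50 h and high at 72 h, while GBX2 reaches its level by 50 h.

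Genes of retinoic acid handling included 4 that rose and 2 that fell among 17 tested (35.3%, against 7.33% called over all genes). Among the 4, CYP26C1 and RARB reached the filter through their 72 h levels alone, and 1 of the 2 falls held. CYP26C1, an enzyme that breaks retinoic acid down, was at 0 and 0.131 TPM at 50 h and at 36.8 and 22.1 TPM at 72 h (4.80 ± 0.28, adjusted p = 0.00012). CYP26A1, which lies next to it on chromosome 10, had been at 21.7 and 23.5 TPM at 34 h, was at 2.92 and 6.67 TPM at 50 h and at 44.9 and 43.3 TPM at 72 h (3.04 ± 0.31, adjusted p = 0.00113). CYP26A1 thus fell and returned, and CYP26C1 was under 1 TPM in each of the 6 libraries before 72 h. RARB, the receptor whose promoter is printed above, went from 0.278 and 0.239 TPM to 2.93 and 2.21 TPM (1.5 ± 0.26, adjusted p = 0.0133). This low-level rise lost its call without any 1 of the 4 libraries, at adjusted p 0.0508 to 0.105, and with a pseudocount of 0.1 (0.0693). CRABP1, a cytoplasmic carrier of retinoic acid, went from 197 and 209 TPM to 355 and 302 TPM (0.69 ± 0.10, adjusted p = 0.00488), or an adjusted p of 0.0532 with the 50 h and 72 h libraries alone in the fit.

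DHRS3, which turns retinal back into retinol, went from 16.4 and 13.6 TPM to 5.73 and 6.81 TPM (-1.14 ± 0.16, adjusted p = 0.00576), and lost its call without 72 h replicate 1 (0.0614). ALDH1A2, the enzyme that makes retinoic acid, was at 1.14 and 4.0 TPM at 50 h and at 0.312 and 0.313 TPM at 72 h and did not pass (-1.32 ± 0.40, adjusted p = 0.0963). Without 50 h replicate 1 its adjusted p was 0.0282. With ALDH1A2, 11 of the 17 tested genes, from a list of 20, did not pass, and the median of 0.01 equalled that of all genes.

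Of the genes shared by neural progenitors, 18 of a list of 20 were tested, 11 rose, 0 fell and 7 did not pass. The rises were 61.1% of the 18, against 2.92% over all genes, and the median was 0.84. PAX6 and 1 other of the 11 reached the filter through their 72 h levels alone, so they could not have been called lower. SOX1, an early factor of the neural plate, was at 6.48 and 5.73 TPM at 50 h and at 56.5 and 45.2 TPM at 72 h (2.86 ± 0.19, adjusted p = 0.000177). FABP7, a fatty acid carrier of neural progenitors, went from 13.9 and 17.2 TPM to 31.0 and 34.2 TPM (1.03 ± 0.14, adjusted p = 0.00507). These were the 2 of the 11 that held without any 1 library. PAX6 was low throughout, at 0.597 and 0.230 TPM and then 4.01 and 3.59 TPM (1.77 ± 0.27, adjusted p = 0.0073), and lost its call without 72 h replicate 1 (0.0702) or with a pseudocount of 0.1 (0.0524). SOX2, which pluripotent and neural cells share, went from 238 and 233 TPM to 348 and 333 TPM (0.53 ± 0.08, adjusted p = 0.00863), and lost its call without 72 h replicate 1 (0.0838) or 72 h replicate 2 (0.0511). Beside the 7.33% called over all genes, none of 10 tested genes of neuronal differentiation passed, and of 19 tested Notch and proneural genes 1 rose (5.26%), ID2 (0.77 ± 0.11, adjusted p = 0.00644), a helix-loop-helix inhibitor whose call was lost without 72 h replicate 1 (0.0708).

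Along the dorsal to ventral axis, 4 of 17 tested dorsal neural tube and neural crest genes rose and 1 fell. These were 29.4% of the 17, against 7.33% called over all genes, and the list median was 0.07. OLIG3, a factor of the dorsal hindbrain and spinal cord, was at 25.9 and 20.9 TPM at 50 h and at 194 and 167 TPM at 72 h (2.90 ± 0.17, adjusted p = 0.00012), and held. PAX3, a marker of the dorsal neural tube that reached the filter through its 72 h levels alone, went from 0.729 and 0.539 TPM to 4.81 and 4.24 TPM (1.76 ± 0.26, adjusted p = 0.00628), and lost its call without 72 h replicate 1 (0.0654) or with a pseudocount of 0.1 (0.0731). Of 12 tested ventral and hedgehog pathway genes 2 rose and 1 fell (25%), with a median of 0.13. BOC, a hedgehog co-receptor, went from 13.3 and 10.6 TPM to 58.4 and 45.4 TPM (2.03 ± 0.19, adjusted p = 0.000845). FOXA2, a factor of the floor plate and of endoderm, went from 5.42 and 6.03 TPM to 0.575 and 0.866 TPM (-1.97 ± 0.18, adjusted p = 0.000683). BOC and FOXA2 both held.

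Ephrins, their receptors and other axon guidance genes had 6 that rose and 1 that fell among 21 tested of 25, with a median of 0.15. Those called were 33.3% of the 21, against 7.33% over all genes. Among the 21, 1 reached the filter through its 72 h levels alone, so it could not have been called lower. EPHA4 held and is given above. EPHA7, another ephrin receptor, went from 1.39 and 1.68 TPM to 7.64 and 5.59 TPM (1.58 ± 0.24, adjusted p = 0.00718), and the ligand EFNB1 from 40.8 and 27.6 TPM to 74.9 and 80.1 TPM (1.18 ± 0.18, adjusted p = 0.00709). Without 72 h replicate 1 the adjusted p was 0.074 for EPHA7 and 0.0581 for EFNB1, and without 72 h replicate 2 it was 0.0595 for EFNB1. Of 8 tested forebrain and eye field genes 1 fell, LHX2 (-1.12 ± 0.27, adjusted p = 0.0451), which lost its call without any 1 of the 4 libraries (0.127 to 0.188), 42 h replicate 1 (0.0688) or 42 h replicate 2 (0.0675), or with a pseudocount of 0.1 (0.107), and none of 6 tested midbrain and isthmus genes passed, numbers too small to set against the 7.33% called over all genes.

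Of 20 listed caudal progenitor genes 15 were tested, 7 fell, 2 rose and 6 did not pass, with a median of -0.53. Those called were 60% of the 15, against 7.33% over all genes. NKX1-2, a homeobox gene of the caudal epiblast, was at 133 and 122 TPM at 50 h and at 15.9 and 25.6 TPM at 72 h (-2.60 ± 0.19, adjusted p = 0.000295). EVX1, a homeobox gene of the primitive streak, was at 7.88 and 6.06 TPM at 50 h and listed at 0 in both 72 h libraries (-2.98 ± 0.22, adjusted p = 0.000266). CDX1, an activator of trunk HOX genes, went from 3.07 and 2.59 TPM to 0.0556 and 0.0564 TPM (-1.86 ± 0.24, adjusted p = 0.00316). The ligand WNT5B went from 49.6 and 43.9 TPM to 12.7 and 16.3 TPM (-1.63 ± 0.21, adjusted p = 0.00314). All 4 held without any 1 library.

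TBXT, the T-box factor of the streak and tail bud, went from 9.62 and 6.83 TPM to 1.62 and 1.87 TPM (-1.73 ± 0.24, adjusted p = 0.00488). Its call was lost without 72 h replicate 1, at 0.0503. CDX2 went from 5.94 and 6.73 TPM to 0.370 and 2.16 TPM (-1.82 ± 0.37, adjusted p = 0.0236), and lost its call without 50 h replicate 1 (0.0797), 50 h replicate 2 (0.115) or 72 h replicate 1 (0.0856), or with a pseudocount of 0.1 (0.0555). At 34 h, before WNT3A, EVX1 and CDX1 were at 0 and TBXT at 0.831 and 1.16 TPM, so EVX1 and CDX1 appeared after 34 h, and TBXT was low at 34 h and again at 72 h. The 2 caudal list genes that rose were CYP26A1 and WNT8A. WNT8A, a WNT ligand, went from 11.2 and 7.63 TPM to 49.4 and 45.8 TPM (2.24 ± 0.23, adjusted p = 0.00113), after 0.402 and 0.454 TPM at 34 h.

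Of the genes of WNT feedback and WNT targets, 15 of 19 tested did not pass, and 21.1% were called, against 7.33% over all genes. SP5, a transcription factor gene that WNT switches on directly, was at 0.255 and 0.106 TPM at 34 h, at 226 and 149 TPM at 50 h and at 201 and 194 TPM at 72 h (0.11 ± 0.20, 95% interval -0.35 to 0.56, adjusted p = 0.804). AXIN2, a feedback inhibitor, was at 98.5 and 90.0 TPM at 50 h and at 63.9 and 70.9 TPM at 72 h and did not pass (-0.48 ± 0.15, adjusted p = 0.0992). TNFRSF19, a receptor gene and WNT target, went from 7.14 and 7.48 TPM to 30.1 and 29.0 TPM (1.88 ± 0.16, adjusted p = 0.000534). Of the 4 that passed 2 rose and 2 fell, the 19 tested genes had a median of -0.20, and TNFRSF19 was the 1 that held without any 1 library.

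**Figure D3:**
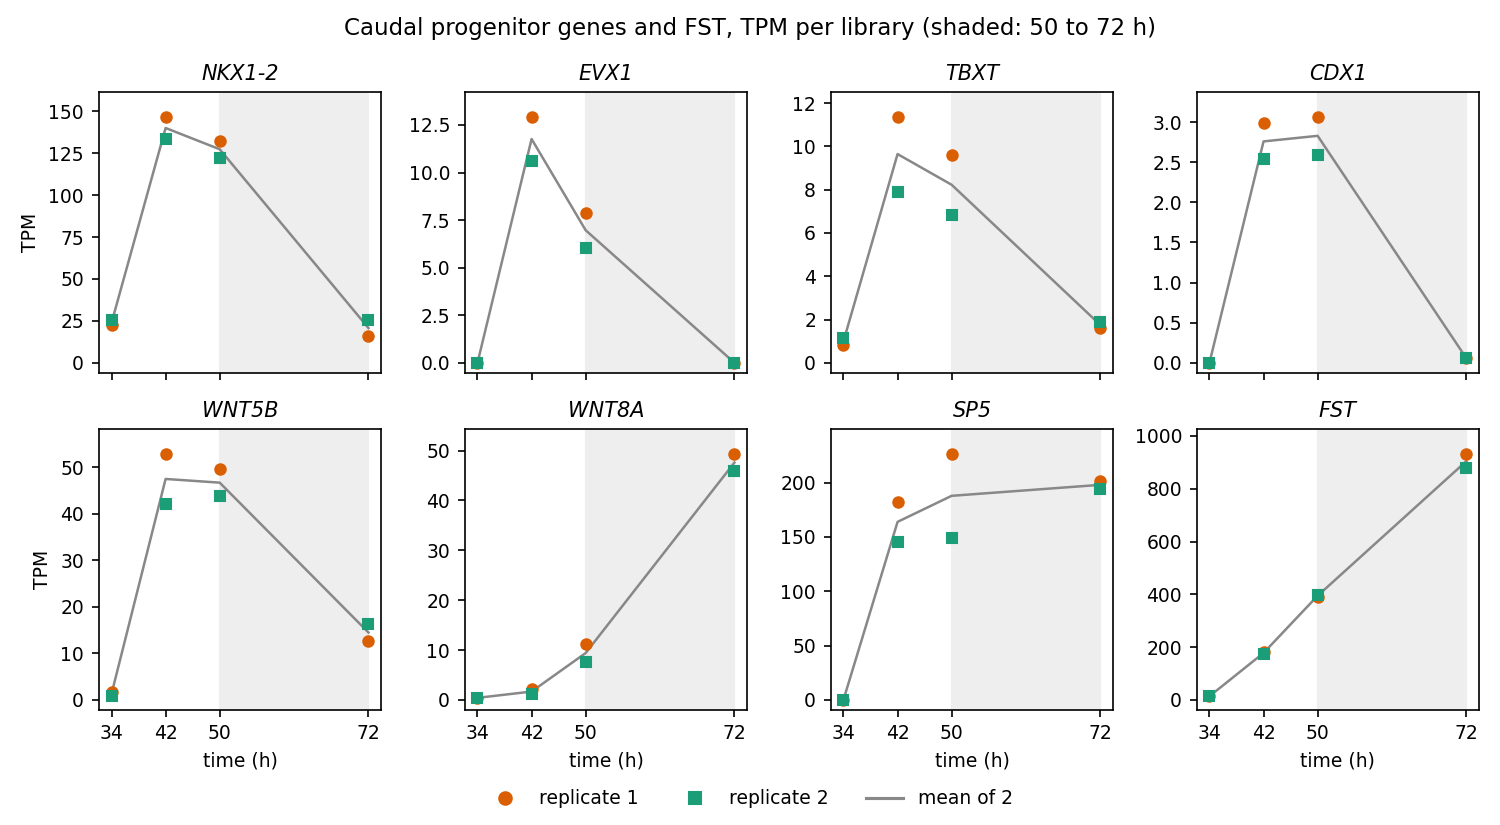
TPM of 7 caudal progenitor and WNT pathway genes and of FST in each of the 8 libraries against time in hours, with circles for replicate 1, squares for replicate 2 and a line through the means. NKX1-2, EVX1, TBXT, CDX1 and WNT5B are high at 42 h and 50 h and low at 34 h and 72 h, SP5 is high from 42 h on, and WNT8A and FST are highest at 72 h.

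Of 22 tested genes of FGF signalling and its feedback 6 fell and 2 rose (36.4%, against 7.33% called over all genes). The median was -0.29. ETV4, an ETS factor downstream of FGF receptors, went from 61.4 and 44.8 TPM to 9.66 and 17.9 TPM (-1.91 ± 0.25, adjusted p = 0.00375). SPRY4, given above, fell as well, and both held, although ETV4 was at 0.0563 with the 50 h and 72 h libraries alone in the fit. The ligand FGF19 went from 4.12 and 4.66 TPM to 0.906 and 1.14 TPM (-1.42 ± 0.20, adjusted p = 0.00535), and lost its call without 72 h replicate 1 (0.0514). The receptor FGFR3 went from 55.7 and 40.4 TPM to 161 and 141 TPM (1.65 ± 0.20, adjusted p = 0.00257), and FGFBP3, a secreted FGF-binding protein, from 99.6 and 98.6 TPM to 252 and 220 TPM (1.24 ± 0.11, adjusted p = 0.000652). Among 19 tested genes of the BMP and nodal pathways, 2 reached the filter through their 72 h levels alone, so they could not have been called lower. Of the 19, 2 rose and 1 fell (15.8%, against 7.33% called over all genes), with a median of -0.45. Both that rose were secreted antagonists, FST from 391 and 399 TPM to 933 and 877 TPM (1.19 ± 0.08, adjusted p = 0.000236) and CHRD from 3.19 and 1.96 TPM to 13.4 and 10.2 TPM (1.85 ± 0.24, adjusted p = 0.00317). FST had stood at 13.4 and 14.8 TPM at 34 h, and it gained more TPM after 50 h than any other gene that passed.

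Of 22 tested pluripotency genes 8 fell, 1 rose and 13 did not pass, with a median of -0.55. Those called were 40.9% of the 22, against 7.33% over all genes. TDGF1, the nodal co-receptor known as CRIPTO, was at 743 and 785 TPM at 34 h, at 156 and 189 TPM at 50 h and at 2.94 and 6.13 TPM at 72 h. This was the largest fall of any gene that passed, -5.03 ± 0.24 (adjusted p = 6.01e-05). POU5F1, the pluripotency factor OCT4, went from 842 and 892 TPM to 354 and 388 TPM (-1.22 ± 0.08, adjusted p = 0.000167), so it was still among the more abundant transcripts at 72 h. The RNA-binding protein gene L1TD1 and the zinc finger gene ZSCAN10 fell by 1.67 ± 0.17 and 1.68 ± 0.19 (adjusted p 0.00128 and 0.0019). The calls of TDGF1, POU5F1, L1TD1 and ZSCAN10 held. PRDM14, a repressor that maintains human pluripotency, was the 1 that rose, from 11.9 and 9.64 TPM to 28.8 and 24.5 TPM (1.24 ± 0.16, adjusted p = 0.0038), and it held. At 34 h it had been at 23.7 and 20.4 TPM.

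CDH1, the gene of E-cadherin, was at 150 and 137 TPM at 34 h, at 95.1 and 105 TPM at 50 h and at 11.7 and 12.5 TPM at 72 h (-2.94 ± 0.11, adjusted p = 2.83e-05). CDH2, the gene of N-cadherin, went from 40.1 and 42.6 TPM at 50 h to 73.3 and 70.2 TPM at 72 h (0.78 ± 0.12, adjusted p = 0.00709), and lost its call without 72 h replicate 1 (0.073). CDH1 was thus above CDH2 in both 50 h libraries and below it in both 72 h libraries, on the TPM scale, which is per length. EPCAM, an epithelial adhesion protein, went from 185 and 220 TPM to 23.7 and 31.0 TPM (-2.85 ± 0.14, adjusted p = 6.01e-05). The tight junction gene CLDN7 went from 26.9 and 32.4 TPM to 3.44 and 2.86 TPM (-2.88 ± 0.13, adjusted p = 5.85e-05). ESRP1, an epithelial splicing regulator, went from 49.4 and 51.9 TPM to 6.83 and 7.64 TPM (-2.65 ± 0.10, adjusted p = 2.83e-05).

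Of 22 tested cadherin and epithelial genes 9 fell and 4 rose (59.1%, against 7.33% called over all genes), with a median of -0.40. CDH1, CDH3, EPCAM, CLDN7, ESRP1 and ESRP2 held, and the polarity gene CRB2 was among those that rose, from 14.0 and 9.05 TPM to 32.0 and 34.5 TPM (1.48 ± 0.21, adjusted p = 0.00584). CRB2 lost its call without 72 h replicate 1 (0.0507) or 72 h replicate 2 (0.0517). CLDN6, the most abundant claudin on the list, went from 1056 and 911 TPM to 652 and 720 TPM (-0.52 ± 0.10, adjusted p = 0.0209), and lost its call without 50 h replicate 1 (0.0885), 72 h replicate 1 (0.155) or 72 h replicate 2 (0.0673).

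**Figure D4:**
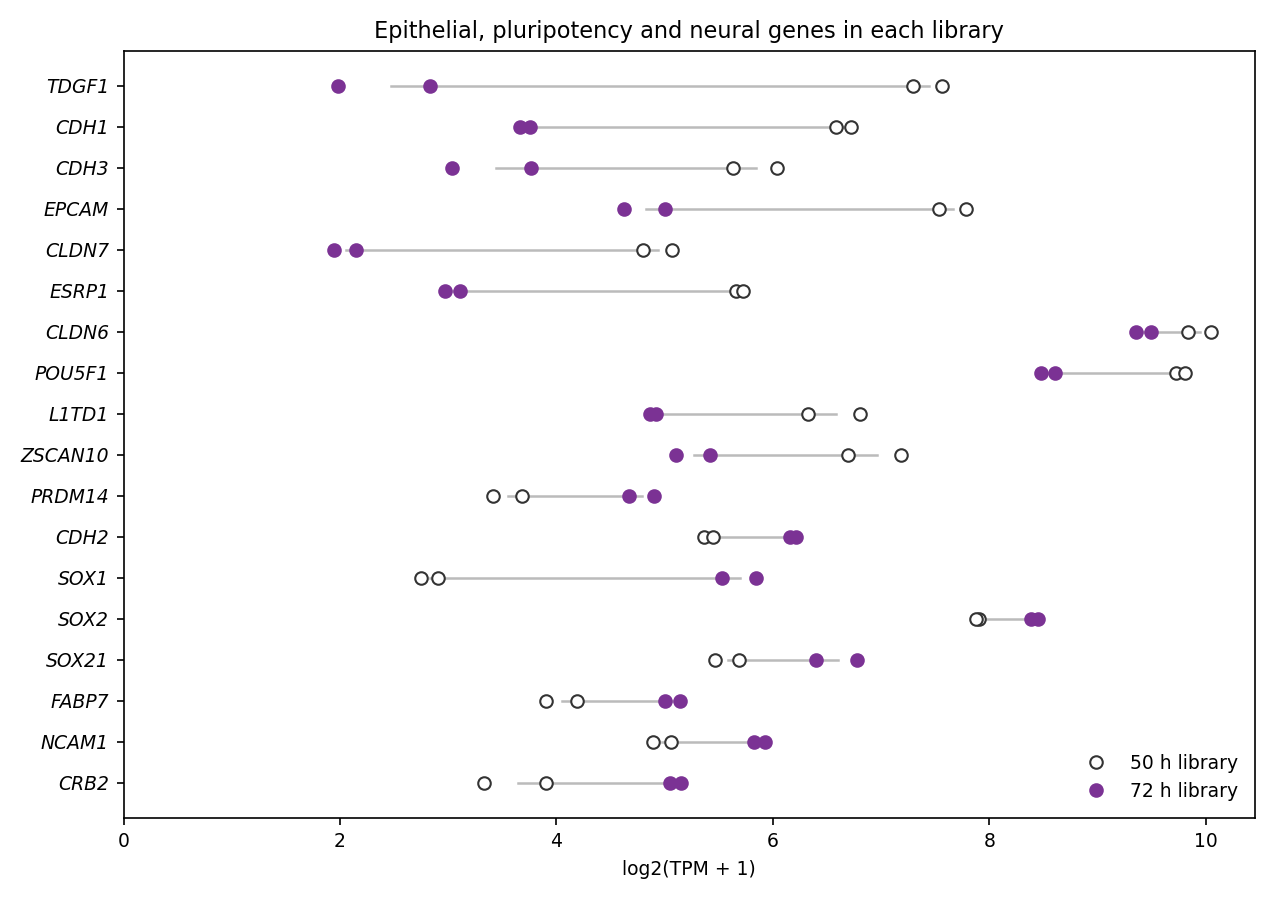
Level of 18 epithelial, pluripotency and neural genes on the log2(TPM + 1) scale, with open circles for the 2 libraries at 50 h, filled circles for the 2 at 72 h and a line between the means. For each gene shown the 2 times do not overlap, which holds for every gene that passed and for 51.7% of all tested genes. The epithelial genes lie to the left at 72 h, and CDH2, SOX1, SOX2, SOX21, FABP7, NCAM1, CRB2 and PRDM14 to the right.

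Of 32 tested cell cycle genes 0 rose and 3 fell (9.38%, against 7.33% called over all genes), with a median of -0.11. Of 26 tested glycolysis and hypoxia genes 1 rose and 2 fell (11.5%), with a median of -0.03, and ADM, a hypoxia-induced peptide hormone gene, was the 1 of them that held. ADM went from 49.2 and 47.1 TPM to 8.15 and 13.8 TPM (-2.08 ± 0.20, adjusted p = 0.000889). Of 23 tested stress genes 6 fell and 0 rose (26.1%), with a median of -0.18. The asparagine synthetase gene ASNS went from 250 and 282 TPM to 83.2 and 89.0 TPM (-1.61 ± 0.15, adjusted p = 0.000862), and CHAC1, which degrades glutathione, from 29.7 and 27.3 TPM to 7.12 and 7.99 TPM (-1.79 ± 0.13, adjusted p = 0.000237). Both are known targets of the transcription factor ATF4, whose own transcript fell by 0.41 ± 0.09 (adjusted p = 0.0336), a call lost without 50 h replicate 2 (0.147), 72 h replicate 1 (0.15) or 72 h replicate 2 (0.167), and also without 42 h replicate 1 (0.0599) or 42 h replicate 2 (0.0601).

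**Figure D5:**
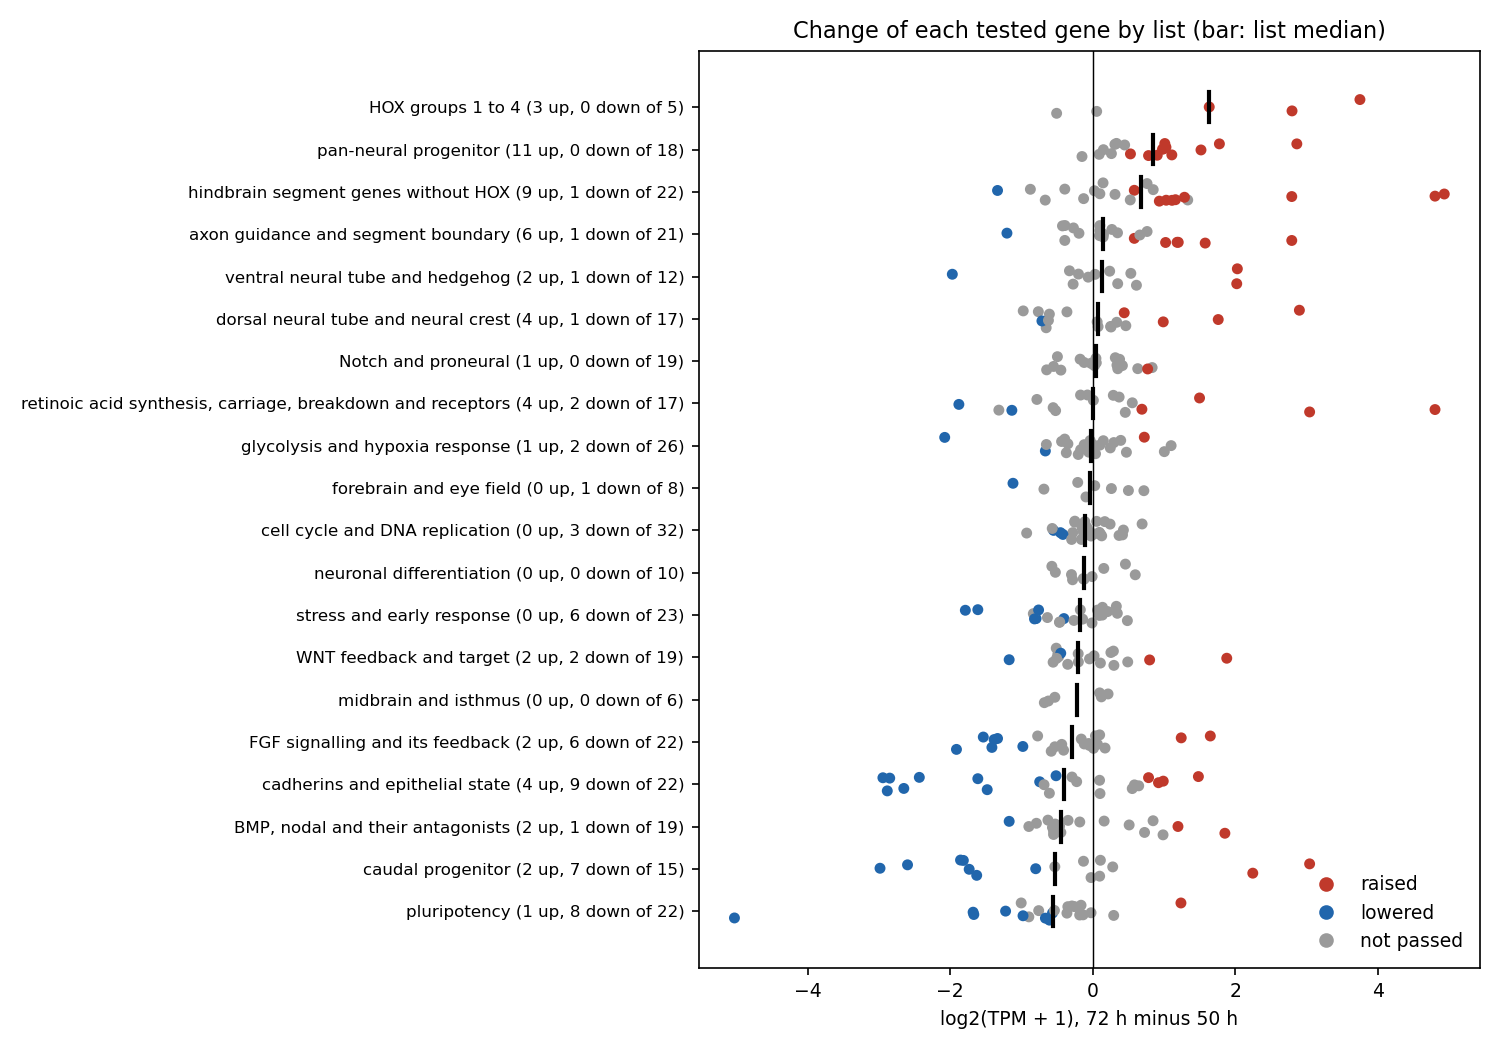
Difference between 72 h and 50 h on the log2(TPM + 1) scale for each tested gene of 20 lists, in red for raised, blue for lowered and grey for not passed, with a black bar at the list's median. The medians run from -0.55 for the pluripotency list to 0.84 for the pan-neural list and 1.63 for HOX groups 1 to 4, where 3 of the 5 genes shown reached the filter through their 72 h levels alone, as did 2 of the 18 pan-neural genes.

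Outside the lists, the largest rises among genes that averaged 5 TPM or more at their higher time, with a difference of at least 1 on the log2 scale in both replicates, included those of DLK1, SMOC1, VGLL3, LRP2 and MAPK10. DLK1, a ligand-like transmembrane protein, went from 8.44 and 11.2 TPM to 253 and 206 TPM (4.42 ± 0.23, adjusted p = 9.21e-05). SMOC1, a secreted modulator of BMP signalling, went from 6.15 and 5.65 TPM to 99.1 and 73.9 TPM (3.65 ± 0.18, adjusted p = 6.47e-05). VGLL3, a cofactor of TEAD transcription factors, went from 14.8 and 11.5 TPM to 216 and 141 TPM (3.64 ± 0.22, adjusted p = 0.00012). LRP2, an endocytic receptor of the neuroepithelium, went from 3.46 and 2.71 TPM to 38.7 and 28.6 TPM (3.07 ± 0.21, adjusted p = 0.000184), and the JNK family kinase gene MAPK10 from 4.87 and 4.42 TPM to 59.5 and 42.5 TPM (3.19 ± 0.19, adjusted p = 0.00012). TNP1, CLEC10A and AL139082.2 were also among the 15 largest rises. CLEC10A was listed at 0 in all 6 libraries before 72 h, and AL139082.2 was listed at 0 in both 50 h libraries and stood at 10.0 and 10.4 TPM at 34 h. Whether reads of these loci are shared with others was not tested.

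Among the largest falls outside the lists were ANXA3, a calcium-dependent membrane-binding protein gene, from 31.2 and 38.3 TPM to 1.28 and 3.77 TPM (-3.43 ± 0.32, adjusted p = 0.000778), and LMCD1, a LIM domain protein gene, from 19.3 and 17.0 TPM to 1.12 and 1.98 TPM (-2.93 ± 0.18, adjusted p = 0.00012). CHGA, the gene of the secretory granule protein chromogranin A, went from 28.7 and 30.4 TPM to 2.72 and 4.59 TPM (-2.75 ± 0.19, adjusted p = 0.000212). VIL1, the gene of the microvillus protein villin, went from 36.7 and 24.3 TPM to 5.61 and 2.62 TPM (-2.66 ± 0.34, adjusted p = 0.00326), and PPP1R1B, a phosphatase inhibitor gene, from 70.4 and 62.3 TPM to 9.45 and 13.6 TPM (-2.44 ± 0.18, adjusted p = 0.000266). AL034430.2, Z69890.1 and TRBC2 were also among the 15 largest falls. AL034430.2 was at 43.4 and 57.7 TPM at 34 h, listed at 0 in both 42 h libraries, at 20.8 and 36.7 TPM at 50 h and again listed at 0 in both 72 h libraries, and whether its reads are shared with other loci was not tested.

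A further count took genes below 1 TPM in both 50 h libraries and at 5 TPM or more in both 72 h libraries. There were 11, of which 9 passed the test, and they included EGR2, CYP26C1, HOXB1, HOXB2 and ZNF503, a zinc finger repressor that went from 0.478 and 0.466 TPM to 6.55 and 6.87 TPM (2.39 ± 0.23, adjusted p = 0.000937). Not all were new at 72 h, since AL139082.2 stood at 4.18 to 10.4 TPM in the 34 h and 42 h libraries, and AC134684.6 and AC015922.1 reached 6.91 and 3.89 TPM there. These last 2 did not pass (adjusted p 0.0914 and 0.104), but both passed with the 50 h and 72 h libraries alone in the fit (0.0145 for each), and AC134684.6 also without 34 h replicate 1 (0.0145) or 34 h replicate 2 (0.0133). The reverse pattern was met by 4 genes, EVX1, FOXA2, AL034430.2 (also listed at 0 at 42 h) and MCOLN3, a lysosomal ion channel gene that went from 5.97 and 8.44 TPM to 0.558 and 0.946 TPM (-2.22 ± 0.23, adjusted p = 0.0013). Both counts pick genes by the values that the test compares, so their passing is no separate support. CYP26C1, HOXB1, HOXB2 and ZNF503 were under 1 TPM in each library before 72 h, so they could not have been called lower.

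The 10 largest gains made 26.6% of all TPM gained by genes that rose, and the 10 largest losses 27.8% of all TPM lost by genes that fell. The genes that rose summed to a mean of 16187 TPM in the 50 h libraries and 28134 TPM in the 72 h libraries, and those that fell to 55131 and 34227 TPM. After FST, the insulin-like growth factor binding protein IGFBP5 (114 ± 17.6 to 473 ± 24.0 TPM, SD, n = 2), the tubulin TUBA1A (394 ± 32.4 to 623 ± 8.5 TPM) and the imprinted gene NNAT (150 ± 18.6 to 365 ± 3.33 TPM) were among the largest gains that held. The actin ACTG1 was the largest loss, from 3542 ± 181 to 2271 ± 132 TPM, and held (-0.64 ± 0.07, adjusted p = 0.0019).

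Markers of other cell types were summed in each library beside these changes. Over all tested genes 2.92% rose and 4.41% fell. For 9 markers of undifferentiated pluripotent cells the 50 h sums were 1412 and 1551 TPM and the 72 h sums 649 and 664 TPM, with 4 of 9 tested lower and 1 higher. Over 8 neural progenitor markers they were 526 and 472 TPM and then 772 and 725 TPM, with 5 of 7 tested higher. PAX6, 1 of these 7, reached the filter through its 72 h levels alone and could not have been called lower. Over 18 mesoderm markers it was 16.1 and 17.0 TPM and then 10.6 and 11.6 TPM, with 2 of 6 tested lower and 3 at 0 in all 4 libraries. Over 13 endoderm markers it was 25.8 and 21.5 TPM and then 17.1 and 19.9 TPM, with 1 of 6 tested higher, 1 lower, and SOX17 and TTR at 0. Over 12 amnion and trophoblast markers it was 44.3 and 48.3 TPM and then 12.4 and 13.5 TPM, with GATA3 and CGA at 0 and all 3 tested lower. Over 10 neural crest markers it was 38.3 and 37.5 TPM and then 65.5 and 68.8 TPM, with 2 of 7 tested higher and 1 lower. CDH19 was at 0. Over 10 neuron markers it was 323 and 260 TPM and then 194 and 225 TPM, with none of 6 tested called. Among these 6, 1 reached the filter through its 72 h levels alone. Over 14 placode and surface ectoderm markers it was 213 and 167 TPM and then 178 and 187 TPM, with none of 4 called. What part such cells have in the falls of FOXA2, CDX2 and the epithelial genes was not tested.

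The change from 34 h to 42 h, the first stretch with WNT3A, shares no library with the change from 50 h to 72 h, although the same fit estimated the spread for both. In that first interval 266 genes rose (1.78%) and 118 fell (0.792%). Of them, 59 of those that rose later fell between 50 h and 72 h, which is 22.2% of the earlier rises and 8.98% of the later falls. A further 32 rose in both intervals (12.03% of the earlier rises and 7.34% of the later), 38 fell in both (32.2% and 5.78%) and 7 fell and then rose (5.93% and 1.61%). NKX1-2, EVX1, CDX1, TBXT and WNT5B are genes whose course of rise and fall is given above.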

How the data were processed

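Poly(A) RNA libraries of paired 150 bp reads were made at 34, 42, 50 and 72 h, 2 per time. The authors deposited TPM per Ensembl gene in 1 table with 1 column per library. Salmon 1.9.0 and GRCh38 are named in the submitters' processing notes, and the annotation and any filter are not given in the sources used here. The 37951 rows were summed to 35940 symbols. A pseudocount of 1 was added, and limma 3.58.1 (R 4.3.3) was fitted with a mean-variance trend; the script was tested on simulated data. The replicate number is also the labelled batch, so it pairs libraries. Deviations of libraries with the same number correlated at 0.0949 to 0.195 among 34, 42 and 50 h, and at -0.104 between 50 h and 72 h. The gene lists and the members were chosen with earlier results of these data known. Genes outside the lists were named by rule, except where said to be chosen after their values were seen: the 15 largest rises and falls, genes crossing from under 1 to at least 5 TPM or back, and the 10 largest gains and losses in TPM. Some list members are not reported here. Alternatives are given in the closing section. Promoters are from RefSeq, which matched 370 of 527 named or listed genes.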

Additional observations from a re-analysis of the deposited data

How the results depend on the processing

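TPM keep no read depth, so no detection limit can be given, and 2 libraries per time limit the precision. The counts of raised and lowered genes, 436 and 657, stayed within 1.5 times under TMM rescaling, quantile normalization, without mitochondrial genes, with a pseudocount of 0.1, at a mean of at least 5 TPM, with no filter (328 and 462), with Ensembl rows apart, without a variance trend, and without any 1 library of 34 h or 42 h. They fell to 149 and 218 of 367 with the 50 h and 72 h libraries alone, and to 20 and 27 of 47 when tested for a log2 change beyond 1. Leaving out 1 of the 8 libraries gave 316 to 911 changed genes, 96 to 370 raised and 220 to 544 lowered, and the lowest of each came without 72 h replicate 1. The raised share of the calls, 39.9%, was 30.4% without 72 h replicate 1, 29.7% without 72 h replicate 2 and 43.2% without 50 h replicate 1. Under the replicate block, which pairs libraries by batch, 450 rose and 648 fell, and it changed the call of none of the 105 tested genes named in the text. TMM rescaling and leaving out mitochondrial genes changed none of those calls either. With the 50 h and 72 h libraries alone 14 of the 105 lost their call (ATF4, CDX2, CLDN6, CRABP1, DHRS3, EFNB1, EFNB3, ESRP2, ETV4, IRX1, LHX2, NR2F2, SOX21 and ZBED6), and with a pseudocount of 0.1 it was 7 (CDX2, HOXA2, LHX2, NR2F2, PAX3, PAX6 and RARB). Without 1 of the 34 h or 42 h libraries the calls of ATF4, EFNB3, LHX2 and NR2F2 could be lost. With 1 library left out, 2 genes that did not pass changed sign: GBX2 ranged from -0.19 to 0.23 and SP5 from -0.19 to 0.41. The cause was not tested.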

Other observations

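Further genes that passed lie outside the lists and were chosen after their values were seen. Epithelial genes were among the falls. SCNN1A, a subunit of the epithelial sodium channel, went from 102 and 99.5 TPM at 50 h to 20.9 and 21.99 TPM at 72 h (-2.18 ± 0.09, limma adjusted p = 2.83e-05). AP1M2, an adaptor for sorting to the basolateral membrane, went from 44.3 and 33.5 TPM to 5.89 and 6.83 TPM (-2.43 ± 0.17, adjusted p = 0.000197). The apical polarity gene CRB3 went from 8.78 and 9.12 TPM to 0.816 and 1.86 TPM (-2.13 ± 0.25, adjusted p = 0.00225), and so moved opposite to its relative CRB2. The serine protease gene ST14 fell by 1.92 ± 0.15 (adjusted p = 0.000403), and CXCL12, a chemokine gene, by 2.39 ± 0.15 (adjusted p = 0.00012).

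Among the rises, PHOX2A, a homeobox gene of cranial motor and noradrenergic neurons, went from 7.98 and 5.43 TPM to 28.6 and 28.7 TPM (1.96 ± 0.20, adjusted p = 0.00113). CNTN2, an axonal adhesion protein gene, went from 2.17 and 2.38 TPM to 11 and 15 TPM (2.08 ± 0.21, adjusted p = 0.00108). The protocadherin gene PCDH8 went from 5.10 and 4.98 TPM to 22.2 and 25.6 TPM (2.04 ± 0.24, adjusted p = 0.00234). The calls of the 8 genes named here held without any 1 of the 4 libraries.

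The loci AL162151.2 and AC116533.1 had differences among the largest of all tested genes and did not pass. AL162151.2 was at 368 and 0 TPM at 50 h and at 390 and 422 TPM at 72 h (adjusted p = 0.473), and AC116533.1 at 206 and 639 TPM and then 78.7 and 0 TPM (adjusted p = 0.124, and 0.0189 without 72 h replicate 1), so replicates of 1 time lay far apart there.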
